A study of Homo sapiens with 9 samples.

Results

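Accessible chromatin regions of SK-N-MC cells with the first of 2 hairpins against CHD4 (shCHD4#1) were set beside those of cells with a scrambled hairpin (shScramble). SK-N-MC is an established Ewing sarcoma cell line. Both groups were kept for 48 h in 100 ng/ml doxycycline, the drug that switches the hairpin on, so the control cells had received the drug too. The labels give the genotype of the shScramble cells as wildtype and that of the shCHD4#1 cells as CHD4 knockdown. Each group had 3 biological replicates of 100000 SK-N-MC cells, mixed with 100 Drosophila S2 cells as a spike-in. Whether a hairpin line is 1 clone or a pool was not given in the sources used here. The deposited files held 1 region list per group. Usable regions lay on chromosomes 1 to 22 or X, were at most 20 kb wide and had no negative value in column 7, a score of the authors whose scale is not stated. They numbered 85359 of 85779 rows for shScramble and 122456 of 122874 rows for shCHD4#1, together 207815 of the 290639 usable regions in the 3 lists of the series. A region was called kept where it shared at least 1 bp with a region of the other list, lost where an shScramble region shared none with the shCHD4#1 list, and gained where an shCHD4#1 region shared none with the shScramble list. With 1 list per group there was no replicate spread and no test. Intervals in brackets are 95% Wilson intervals over regions, which cover counting error only, since neighbouring regions are not independent.

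ATAC-seq cuts DNA with a transposase that reaches open chromatin more readily than DNA wrapped in nucleosomes, so promoters and enhancers in use stand out as accessible regions. CHD4 is the ATP-driven motor of the NuRD complex, which joins nucleosome remodelling to histone deacetylation and is best known for keeping genes of other lineages and stages quiet. In Ewing sarcoma the fusion factor EWSR1::FLI1, an ETS protein, binds DNA with the core letters GGAA and opens enhancers at GGAA repeats. The comparison asks how DNA accessibility differs when CHD4 is silenced.

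The start sites below show what lay under regions found in both lists or in 1 list alone. Each line gives the 250 bases before the start site of a gene with 1 listed start, 5′ to 3′ along the gene's strand, from RefSeq on GRCh38.p14. GGAA and its reverse complement TTCC, the ETS core on either strand, are in capitals. SLC2A8, a glucose transporter, had its start in both lists, in row 14 of the shScramble file and row 19 of the shCHD4#1 file.
SLC2A8, chr9:127396919-127397168, plus strand: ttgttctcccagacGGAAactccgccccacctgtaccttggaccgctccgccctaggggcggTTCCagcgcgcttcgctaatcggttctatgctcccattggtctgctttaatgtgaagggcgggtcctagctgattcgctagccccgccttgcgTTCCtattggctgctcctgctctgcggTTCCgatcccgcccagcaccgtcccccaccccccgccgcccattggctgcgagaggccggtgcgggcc
The starts of RBAK, a zinc finger repressor that binds the retinoblastoma protein, of CAMSAP3, which caps microtubule minus ends, and of ATP5IF1, the inhibitor of the mitochondrial ATP synthase, lay in the best-placed shCHD4#1 regions (rows 1180, 3694 and 4088) with no shScramble region within 1 kb.
RBAK, chr7:5045610-5045859, plus strand: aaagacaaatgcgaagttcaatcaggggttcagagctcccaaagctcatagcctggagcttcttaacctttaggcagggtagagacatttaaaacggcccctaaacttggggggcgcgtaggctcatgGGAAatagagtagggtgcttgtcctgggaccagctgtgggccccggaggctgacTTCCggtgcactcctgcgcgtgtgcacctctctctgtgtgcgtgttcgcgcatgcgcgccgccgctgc
CAMSAP3, chr19:7595613-7595862, plus strand: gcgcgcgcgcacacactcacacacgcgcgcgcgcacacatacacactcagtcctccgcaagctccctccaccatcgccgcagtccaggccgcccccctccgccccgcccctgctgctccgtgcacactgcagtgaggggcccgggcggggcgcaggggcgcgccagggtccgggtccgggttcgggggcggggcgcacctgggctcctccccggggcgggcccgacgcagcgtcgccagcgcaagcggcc
ATP5IF1, chr1:28235874-28236123, plus strand: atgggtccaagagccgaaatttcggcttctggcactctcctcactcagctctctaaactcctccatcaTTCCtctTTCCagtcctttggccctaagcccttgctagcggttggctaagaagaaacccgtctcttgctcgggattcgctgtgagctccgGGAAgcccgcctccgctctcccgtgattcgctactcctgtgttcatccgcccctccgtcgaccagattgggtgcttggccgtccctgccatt
The nearest shScramble region lay 1269 bp from the RBAK start, 1112 bp from that of CAMSAP3 and 1943 bp from that of ATP5IF1. These distances are from the start. The shCHD4#1 regions themselves may lie closer to an shScramble region or overlap it, and their gaps are not given here. The starts of SYMPK, a scaffold of the 3′ end processing machinery, and of MRPS17 and MRPS15, proteins of the mitochondrial ribosome, lay in the best-placed shScramble regions (rows 1194, 2152 and 3141) with no shCHD4#1 region within 1 kb.
SYMPK, chr19:45863148-45863397, minus strand: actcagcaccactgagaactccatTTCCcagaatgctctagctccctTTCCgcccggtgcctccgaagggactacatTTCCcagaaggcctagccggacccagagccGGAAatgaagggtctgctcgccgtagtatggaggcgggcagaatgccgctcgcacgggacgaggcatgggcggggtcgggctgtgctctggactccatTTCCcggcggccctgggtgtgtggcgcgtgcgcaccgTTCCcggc
MRPS17, chr7:55951627-55951876, plus strand: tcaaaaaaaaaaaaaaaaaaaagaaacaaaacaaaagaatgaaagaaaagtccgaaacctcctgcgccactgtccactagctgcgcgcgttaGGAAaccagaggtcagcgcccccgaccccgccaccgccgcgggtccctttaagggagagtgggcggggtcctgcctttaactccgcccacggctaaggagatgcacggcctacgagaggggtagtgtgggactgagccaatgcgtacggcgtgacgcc
MRPS15, chr1:36464385-36464634, minus strand: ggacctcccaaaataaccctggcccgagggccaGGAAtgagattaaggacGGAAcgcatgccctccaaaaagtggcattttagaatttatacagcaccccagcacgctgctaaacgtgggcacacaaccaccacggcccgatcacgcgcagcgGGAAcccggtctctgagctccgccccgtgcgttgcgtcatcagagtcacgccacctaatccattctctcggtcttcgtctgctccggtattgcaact
Here the nearest shCHD4#1 region began 1123 bp (SYMPK), 1283 bp (MRPS17) and 1346 bp (MRPS15) from the start. Measured from the edge of the shScramble region, it lay 30 bp away at SYMPK and within 1 kb at MRPS17. The 250 bases held 4 copies of the ETS core at SLC2A8, 2 at RBAK, 0 at CAMSAP3, 3 at ATP5IF1, 6 at SYMPK, 1 at MRPS17 and 3 at MRPS15. CpG dinucleotides were plain at all of them, from 15 at RBAK and ATP5IF1 to 34 at CAMSAP3.

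The shCHD4#1 list held 1.43 times as many regions as the shScramble list and covered 199 Mb against 141 Mb. Of the shScramble regions, 65926 were kept (77.2%, 77 to 77.5) and 19433 were lost (22.8%, 22.5 to 23). Of the shCHD4#1 regions, 67252 were kept (54.9%, 54.6 to 55.2) and 55204 were gained (45.1%, 44.8 to 45.4). These shares moved with the length of the lists. With the first 20000 rows of each file, 40.5% of the shScramble regions were lost (39.9 to 41.2) and 41.4% of the shCHD4#1 regions were gained (40.7 to 42.1). Lists of equal length make these shares nearly equal by construction, so this cut cannot show whether gains outnumber losses. Against the whole of the other list, the first 20000 rows held 1277 lost regions (6.39%) and 2268 gained ones (11.3%). Overlaps were then looked for among 122456 regions for the shScramble rows and among 85359 for the shCHD4#1 rows. A longer list makes an overlap easier to find, so this cut cannot show it either. The cut at row 20000 also fell at a higher authors' p in the shScramble file than in the shCHD4#1 file. The read depth of the libraries was not given in the sources used here, and its part in the longer shCHD4#1 list was not tested.

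Gained and lost regions lay mostly low in the lists, which the authors ordered by their p-value. With each list cut in file order into 10 equal parts, 96.7% of the shScramble regions of part 1 were kept and 57.5% of those of part 9. In the shCHD4#1 list the share kept went from 93% in part 1 to 29.6% in part 9. A p of 0.05 or below in the authors' columns was reached by 421 lost and 1241 gained regions. Part 10 broke the order: 86.1% of shScramble regions and 56.9% of shCHD4#1 regions there were kept. Many of the last rows had a p over 0.9 and yet a column 7 value at or above the list's median. This late block held 6833 shScramble regions, with a median width of 2120 bp and a median column 7 of 786 against 244 in the whole list, and 91.8% of them were kept. In the shCHD4#1 list the block held 8293 regions, with a median column 7 of 677 against 219, and 72.3% of them were kept. A further 12897 shCHD4#1 regions had a p over 0.9 and a low column 7, and 27.5% of these were kept.

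**Figure D1:**
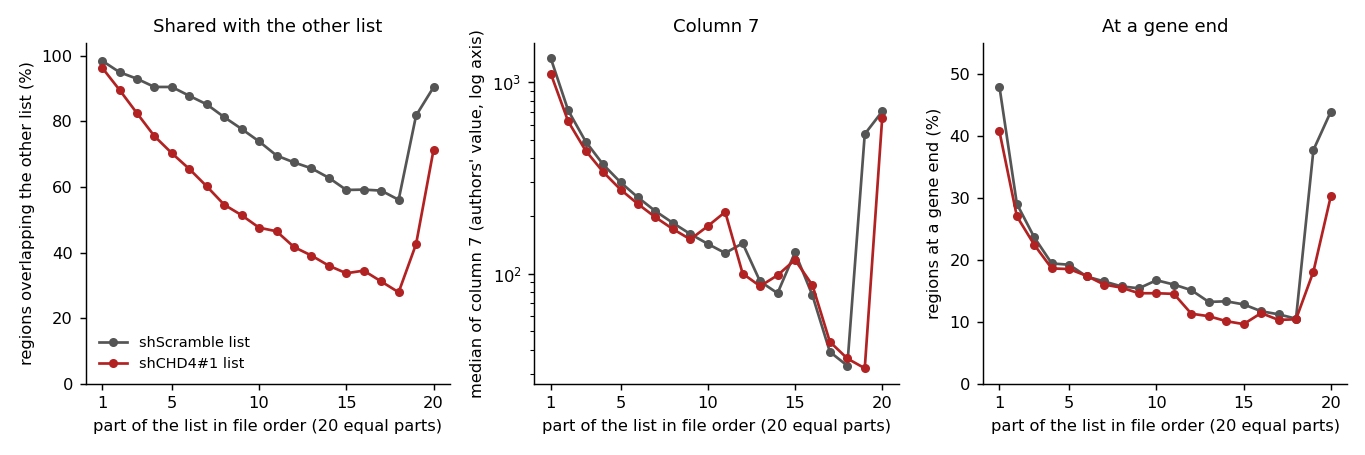
Share of regions overlapping the other list (left), median of column 7 on a log axis (middle) and share of regions within 1 kb of a gene end (right) for 20 equal parts of the shScramble list (grey) and the shCHD4#1 list (red) in file order. The share kept goes from 98.5% to 56.1% along the first 18 parts of the shScramble list and from 96.4% to 27.9% along those of the shCHD4#1 list, and all 3 measures are high again in the last part of both.

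Many listed regions looked like pieces of a longer accessible stretch, judged only by a column 7 value shared with a close neighbour. Touching neighbours, 6613 pairs in the shScramble list and 11667 in the shCHD4#1 list, had the same column 7 value in 100% of pairs. Neighbours that were apart by at most 1 kb had the same value in 82.6% of shScramble pairs and 70% of shCHD4#1 pairs, against 2.19% and 2.72% of neighbours farther apart. Of the regions in the late block, 87.4% (shScramble) and 85.1% (shCHD4#1) had a partner with the same value within 1 kb. Of all regions, 43.8% and 44.1% had one. The CHD4 start shows the form this takes: the shCHD4#1 list had 3 touching pieces at chr12:6606771-6606970, chr12:6606971-6607550 and chr12:6607551-6609540, all with a column 7 of 1797, in rows 115983, 21315 and 856. Joining such pieces left 65500 shScramble and 93612 shCHD4#1 stretches, again a ratio of 1.43. On the joined stretches 18.7% were lost and 42% were gained.

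A lost region often lay beside a region of the other list. The median gap from a lost region to the nearest shCHD4#1 region was 1410 bp, and for gained regions, measured to the shScramble list, the median gap was 6590 bp. To the nearest region of their own list the median gap was 1430 bp for lost and 1260 bp for gained regions. Lost regions were measured against the denser list, of 122456 regions, and gained ones against 85359. The part of this density in the gaps was not tested. Within 1 kb but not touching lay 43.4% of lost regions and 22.8% of gained regions, and more than 50 kb away lay 4.02% and 10.7%. Requiring that no region of the other list lay within 1 kb left 10580 lost regions (12.4% of the shScramble list) and 42147 gained regions (34.4% of the shCHD4#1 list). Of the 100 best-placed lost regions 75 lay within 1 kb of an shCHD4#1 region, and of the 100 best-placed gained regions 38 lay within 1 kb of an shScramble region.

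The best-placed lost region, in row 4 of the shScramble file, covered the end of ANP32E, a histone chaperone that removes H2A.Z, at chr1:150235241-150238280, and an shCHD4#1 region lay 70 bp away. Others lay in GLI1, the zinc finger effector of Hedgehog signalling, at chr12:57462351-57463810 (90 bp from an shCHD4#1 region), and at the end of ATP5MF, a subunit of the ATP synthase, at chr7:99465941-99466710 (10 bp). These 3 calls of a loss thus rested on gaps of at most 90 bp. The best-placed lost region more than 1 kb from any shCHD4#1 region lay inside ZBTB38, a zinc finger protein that binds methylated DNA, at chr3:141368741-141370960 in row 333, with a gap of 7000 bp. KRTAP4-11, a keratin-associated protein of hair, had 2 such regions, in a family of close copies whose reads are hard to place, at chr17:41119101-41121360 and chr17:41115331-41117820, with gaps of 24260 and 27800 bp. FUZ, a planar polarity protein needed for cilia, had 1 at chr19:49813001-49814360, with a gap of 2180 bp. TCF7, a nuclear partner of beta-catenin, had 1 at chr5:134144781-134146460, with a gap of 1510 bp.

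The best-placed gained region lay at chr17:82367121-82369040, 2724 bp from UTS2R, the urotensin receptor, in row 110, and an shScramble region lay 170 bp away. Another lay inside VAV1, a signalling protein of blood cells, at chr19:6828481-6830030, with an shScramble region 130 bp away. Beyond 1 kb, the best-placed gained region was chr8:135850702-135854271, over 100 kb from any protein-coding gene, in row 527 and 18091 bp from the nearest shScramble region. The next lay 3444 bp from UBE2D4, a ubiquitin-conjugating enzyme, at chr7:43959581-43961580, with a gap of 4440 bp. The following one lay at GTF2IRD2B, at chr7:75092931-75093140, with a gap of 14660 bp. GTF2IRD2B has a near-identical copy in the genome, so the assignment of its reads is uncertain. GUCY1A2, a subunit of the nitric oxide receptor, held a gained region at chr11:106956201-106957840, with a gap of 2620 bp.

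Both gained and lost regions were placed away from gene ends. A gene end here is either end of a protein-coding gene, with 1 kb on each side. Of the kept shCHD4#1 regions 22% lay at a gene end (21.7 to 22.3), of the gained regions 11.2% (10.9 to 11.4). Of the kept shScramble regions 22.7% lay there (22.3 to 23), of the lost regions 12.3% (11.9 to 12.8). The intervals of gained and lost regions do not overlap those of kept regions. More than 100 kb from any protein-coding gene lay 15.7% of gained and 13.6% of lost regions, against 10.9% and 10.7% of the kept regions of the 2 lists. Inside genes lay 43.4% of gained and 43.6% of lost regions, against 39.1% and 38.9% of kept ones. Seen from the positions, 13.8% of the shScramble regions at gene ends were lost, against 27.3% of those more than 100 kb away, and 29.4% of the shCHD4#1 regions at gene ends were gained, against 54.2%.

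**Figure D2:**
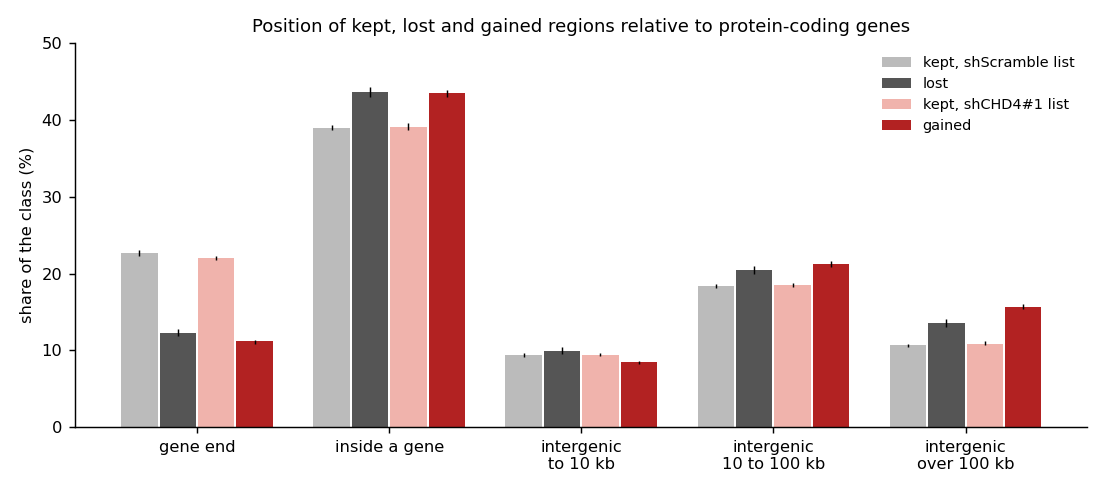
Share of kept, lost and gained regions (bars, with 95% Wilson intervals over regions) at 5 kinds of position relative to protein-coding genes. The gene-end bars of the kept regions, 22.7% and 22%, stand above those of lost regions, 12.3%, and gained regions, 11.2%, and the bars for more than 100 kb stand in the reverse order.

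The pattern of the gained regions held at every place in the list, and that of the lost regions did not. In each of the 10 parts of the shCHD4#1 list, gained regions lay at gene ends less often than kept ones, with 8.87% to 17.2% against 12.6% to 35.1%. Lost regions lay at gene ends more often than kept ones in the first 3 parts of the shScramble list, with 41.7% against 38.3%, 28.4% against 20.9% and 20.7% against 17.9%, and less often in the 7 later parts. The intervals of lost and kept regions overlapped in parts 1, 3 and 4 and lay apart in the others. Against the whole of the other list, the lost regions of the first 20000 rows lay at gene ends in 30.2% (27.8 to 32.8) and the gained regions in 16.2% (14.8 to 17.8). With absence taken as no region of the other list within 1 kb, the shares were 6.64% of lost and 8.4% of gained regions.

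Where the 3′ end of a gene had a region, it was less often shared by the lists than at the 5′ end. Among 11551 genes of at least 10 kb whose strand the RefSeq start table gives, a region lay within 1 kb of the 5′ end in both lists for 6885 genes, only in the shCHD4#1 list for 1286 and only in the shScramble list for 330. At the 3′ end, where fewer genes had any region, these numbers were 1715, 1115 and 473. The 5′ end was thus without a region in the shCHD4#1 list for 4.57% of the genes that had one in the shScramble list, and the 3′ end for 21.6%. Of the genes with a region in the shCHD4#1 list, 15.7% had none in the shScramble list at the 5′ end and 39.4% at the 3′ end. Along the bodies of 8923 genes of at least 20 kb, 31.5% of the kept shCHD4#1 regions lay in the first of 5 equal parts (31 to 32.1), against 22.8% of gained regions (22.2 to 23.4) and 25.8% of lost regions (24.9 to 26.9).

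Start sites covered in 1 list alone were poorer in CpG than those covered in both. The RefSeq table gave 22132 start sites for 15812 of the 19974 protein-coding genes (79.2%, none on chromosome 8). This is too few to stand for all protein-coding genes, so the values describe the listed start sites only. A region lay within 1 kb of 12257 start sites in both lists (55.4%), of 2495 only in the shCHD4#1 list, of 616 only in the shScramble list and of 6764 in neither. The CpG observed over expected ratio in 300 bases around the start, a measure of how far CpG has been spared from loss by methylation, had a median of 0.825 for starts in both lists, 0.69 for shCHD4#1 only, 0.74 for shScramble only and 0.346 for neither. The ratio was over 0.6 for 80.1% of starts in both lists (79.3 to 80.8), 56.7% with shCHD4#1 only (54.7 to 58.6), 60.9% with shScramble only (57 to 64.7) and 31.9% in neither. The median gap to the other list was 6544 bp for starts with shCHD4#1 only and 2293 bp for starts with shScramble only. Of 4036 genes with 2 or more listed starts, 358 had a start in both lists and another with shCHD4#1 only, and 119 had a start in both lists and another with shScramble only.

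**Figure D3:**
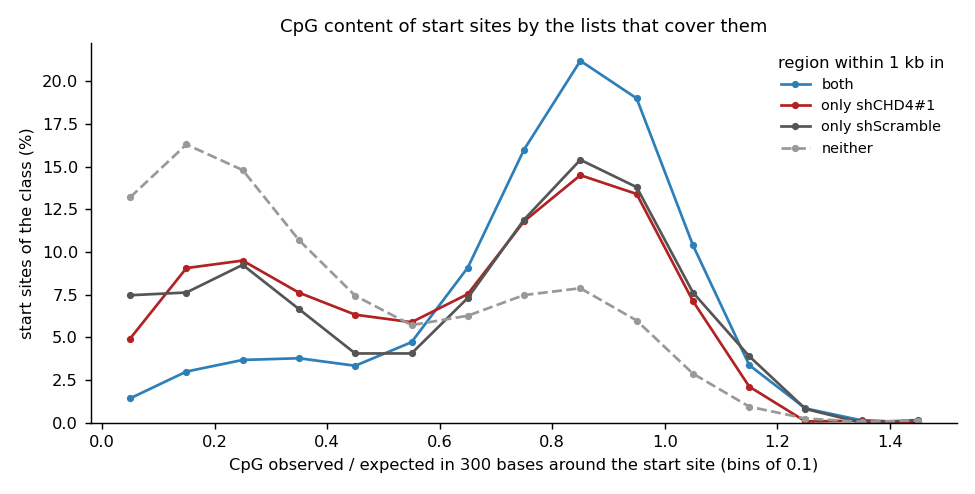
Share of start sites (vertical axis) in each bin of the CpG observed over expected ratio (horizontal axis) for starts with a region within 1 kb in both lists, in 1 list alone or in neither. The starts in both lists have a median of 0.825, the starts in neither list have a median of 0.346, and the starts in 1 list alone spread over both the low and the high bins.

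Short motifs in the same 300 bases also differed between the classes of start site. All were searched on both strands, and a match is only a match of letters. The site of NRF1, an activator of genes of respiration (GCGC, any base, TGCGC), was found in 10.9% of starts in both lists, 4.85% with shCHD4#1 only, 7.14% with shScramble only, 2.08% in neither and 7.41% of all 22132. The E-box CAGCTG, a site of myogenic and neurogenic helix-loop-helix factors, was found in 16.7%, 23.2%, 17%, 18.6% and 18% in the same order. Its interval with shCHD4#1 only was 21.6 to 24.9 and that of all starts was 17.5 to 18.5. The E-box CAGGTG, which binds SNAIL and ZEB factors, was found in 17.7%, 23.4%, 21.3%, 22.7% and 20%. The E-box CACGTG, bound by MAX and USF factors, was found in 9.81%, 8.22%, 7.95%, 5.75% and 8.34%, highest in starts in both lists. TGACGTCA, the cyclic AMP response element, was found in 3.09% of starts in both lists and in 1.88% with shCHD4#1 only, 1.14% with shScramble only and 0.991% in neither. In the order used for the NRF1 site, GGGCGG was found in 68.4%, 60.5%, 53.9%, 32.9% and 56.3%. CCAAT was found in 37%, 28.4%, 29.9%, 33.1% and 34.6%. TATAAA was found in 5.74%, 8.02%, 10.2%, 16.7% and 9.46%. TGANTCA (N is any base) was found in 4.4%, 6.37%, 7.14%, 9.15% and 6.15%. The NRF1 site, CACGTG, TGACGTCA and GGGCGG each hold a CpG, and the part of CpG content in their shares was not tested. GGAA was found in 92.2% to 95.8% of the starts of every class. The doubled form GGAAGGAA was found in 3.36% of starts in both lists, 3.93% with shCHD4#1 only and 3.08% with shScramble only, with overlapping intervals, and in 4.23% in neither (3.77 to 4.73), apart from the interval of starts in both lists (3.06 to 3.7).

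Regions present in both lists had nearly the same median width, while single pairs differed widely. Gained regions had a median width of 1280 bp and lost regions of 1330 bp, against 1480 bp for kept regions in each list. The rule of 1 shared bp is met more easily by wide regions, so part of this difference may be built in. In 42084 pairs of regions that overlapped only each other, shScramble regions had a median width of 1490 bp and shCHD4#1 regions of 1480 bp, and the median ratio was 0.993, with quartiles of 0.767 and 1.3. At gene ends the shCHD4#1 region was the wider of the pair in 53% of 8103 pairs (51.9 to 54.1), with a median ratio of 1.03. More than 100 kb from genes it was the wider in 42.2% of 5173 pairs (40.9 to 43.6), with a median ratio of 0.935. The direction for all pairs turned with joined pieces, to a median ratio of 1.02, and with the first 20000 rows, to 1.01. The other kept regions were split: 10147 shScramble regions overlapped 2 or more shCHD4#1 regions (15.4% of kept), and 8916 shCHD4#1 regions overlapped 2 or more shScramble regions (13.3%).

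Gained regions ran together more often than lost ones. Both lists merged gave 130916 places, of which 56279 were kept, 55204 gained and 19433 lost. Runs of 5 or more neighbouring gained places numbered 1656 and held 10336 places. Runs of 5 or more lost places numbered 27 and held 145. The longest gained run, 22 places over 175 kb at chr5:1233641-1409070, crossed SLC6A18, TERT, CLPTM1L and SLC6A3, among them the telomerase reverse transcriptase (TERT) and the dopamine transporter (SLC6A3). A run of 20 places over 120 kb at chr11:1119281-1239320 crossed MUC5AC and MUC5B, the gel-forming mucins of the airway. Another run of 20 places, over 346 kb at chr7:155814361-156159900, crossed no protein-coding gene. The longest lost runs had 7 places, at chr3:104596171-104726910 with no protein-coding gene and at chr5:66756381-66991860 in MAST4, a kinase linked to microtubules. Of several lost runs of 6 places, the first in order lay at chr12:26787891-26833040 in ITPR2, a calcium release channel. Of all places 42.2% were gained and 14.8% were lost, and the part of these shares in the run lengths was not tested.

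Every chromosome had more regions in the shCHD4#1 list. The ratio was lowest on chromosome 8, at 1.31 (4664 and 6088 regions), on chromosome 15, at 1.37, and on chromosomes 12, 13, 17 and 19, all at 1.39. It was highest on chromosome 16, at 1.56 (2778 and 4330 regions), and on chromosomes 18 and 21, both at 1.54. The order differed for the ratio of bases covered, which was 1.41 over all chromosomes. Chromosome 8 was again lowest, at 1.27, but chromosome 22 was highest, at 1.58. Chromosome 18 had 1.37 in bases, chromosome 17 had 1.47 and chromosome 19 had 1.46. The share lost ran from 19.2% on chromosome 19 (17.9 to 20.5) to 27.6% on chromosome 18 (25.1 to 30.2), and the share gained from 41.5% (40.1 to 42.8) to 51.5% (49.2 to 53.8) on the same chromosomes. Chromosome 19 had 24.8 protein-coding genes per Mb and chromosome 18 had 3.36. Across the 23 chromosomes the share lost and the genes per Mb had a Spearman correlation of -0.912, and the share gained and the genes per Mb one of -0.405. For the ratio of region number and the genes per Mb it was -0.154. These are descriptions over chromosomes that share 2 lists. Chromosome 8 had 63 of the 1000 best-placed shScramble regions and 115 of the 1000 best-placed shCHD4#1 regions.

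**Figure D4:**
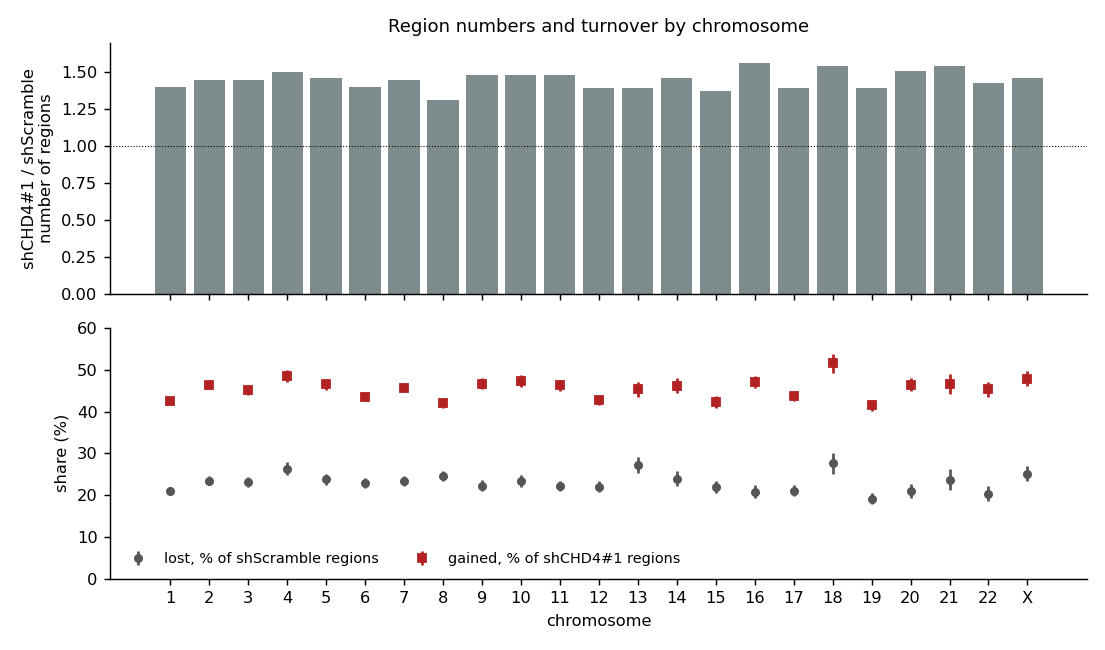
Ratio of the number of shCHD4#1 to shScramble regions on each chromosome (top, the dotted line is equal numbers) and the shares lost and gained with 95% Wilson intervals over regions (bottom). The ratio runs from 1.31 on chromosome 8 to 1.56 on chromosome 16, and chromosomes 18 and 19 mark the highest and the lowest shares in both classes.

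The ratio was higher at the chromosome ends, pooled over arms, than elsewhere. In the outermost 5 Mb of 41 chromosome arms there were 9820 shScramble and 15990 shCHD4#1 regions, a ratio of 1.63, against 1.41 elsewhere. The share gained was 49.3% there (48.5 to 50.1) and 44.4% elsewhere (44.2 to 44.7), while the share lost was 19.9% (19.2 to 20.7) and 23.1% (22.8 to 23.4). Of 282 bins of 10 Mb with at least 100 shScramble regions, 1 had fewer regions with shCHD4#1. It lay on chromosome 8 from 120 to 130 Mb, with 949 and 943 regions. The highest bin ratios were 1.86 on chromosome X from 60 to 70 Mb (116 and 216 regions) and 1.84 on chromosome 20 from 60 to 70 Mb (282 and 518) and on chromosome 5 from 0 to 10 Mb (256 and 470), the bin that holds the longest gained run. Bins away from the ends were also among the highest, with 1.82 on chromosome 10 from 40 to 50 Mb and 1.81 on chromosome 2 from 120 to 130 Mb. The median bin had a ratio of 1.44. The number of chromosome copies in these cells was not measured here.

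Counted by gene, with 5 kb on each side of the gene, more genes had additional regions than fewer. Of 19974 protein-coding genes, 10222 had more regions in the shCHD4#1 list (51.2%) and 3448 had fewer (17.3%), and these are the shares against which the gene groups below are read. With the first 20000 rows of each file, 3721 genes had more (18.6%) and 3919 had fewer (19.6%). This cut removes any surplus of regions in the longer list. An end was covered only with shCHD4#1 for 2227 genes (11.1%) and only with shScramble for 587 (2.94%), and in both lists for 11965. Long genes differed most often: of the longest of 5 groups by length, with a median of 152 kb, 71.4% had more regions, and of the shortest, with a median of 3.12 kb, 36.7%. The gene groups below were not matched for length, and the part of length in their shares was not tested.

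CHD4 itself, the hairpin's target, had 6 regions in the shScramble list and 9 in the shCHD4#1 list, 2 of them gained, and its start was covered in both. With pieces joined these were 5 and 6 stretches. Accessibility at the gene does not measure its RNA, so these numbers do not check the knockdown. Of 15 NuRD subunits and partners, 9 had more regions and 3 had fewer, and with joined pieces 12 had more and 1 had fewer (of all genes, 48.1% and 11.1% then did). Among the first 20000 rows 4 had more and 5 had fewer. CDK2AP1, a small NuRD partner, went from 0 to 9 regions between chr12:123262541-123263240 and chr12:123272051-123272590, all with a column 7 of at most 277 and placed between 24.4% and 89.3% of the way down the list. Of these, 4 touching pieces shared the value of 277, and the 9 regions made 5 stretches. GATAD2A, which links CHD4 to the deacetylase part of the complex, had 7 and 13 regions. MTA3, a scaffold subunit, had 7 and 14, but 3 and 2 among the first 20000 rows. RBBP7, a histone-binding subunit, had 1 and 0 regions, and the deacetylase HDAC2 had 4 and 3, or 3 and 3 stretches.

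The 10 genes nearest to the most gained regions were long, from 404 to 2173 kb. GSE1, a protein found with histone deacetylase and demethylase complexes, was nearest to 51 gained and 11 lost regions and had 68 and 103 regions in the 2 lists. CAMTA1, a calmodulin-binding transcription activator, had 63 and 102 regions. PTPRN2, a phosphatase-like protein of secretory vesicles, had 23 and 63, yet 4 and 2 among the first 20000 rows. RBFOX3, the neuronal splicing factor also called NeuN, had 24 and 60, and CDH4, the retinal cadherin, had 20 and 52. KCNQ1, a potassium channel of heart and ear, had 14 and 45, and SHANK2, a scaffold of the synapse, had 19 and 46. All of these had more stretches after pieces were joined, for example 19 and 49 at PTPRN2 and 8 and 35 at KCNQ1.

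The genes nearest to the most lost regions included 3 genes of chromosome 8 that had fewer regions with shCHD4#1. ASAP1, a regulator of ARF proteins and focal adhesions, was nearest to 24 lost and 13 gained regions and had 76 and 65 regions. ZFAT, a zinc finger factor with AT-hooks, had 51 and 41, and NSMCE2, the SUMO ligase of the SMC5/6 complex, had 43 and 36. Their order turned among the first 20000 rows, with 9 and 14 at ASAP1, 8 and 15 at ZFAT and 5 and 7 at NSMCE2, and at ZFAT also with joined pieces, with 34 and 35. Others had many lost and still more gained regions. TRAPPC9, also on chromosome 8, was nearest to 16 lost and 41 gained regions and had more regions with shCHD4#1. CNTNAP2, a neurexin-like protein of axons, was nearest to 21 lost and 30 gained regions and had 54 and 65 in all. TENM2, a teneurin adhesion protein of synapses, was nearest to 15 lost and 31 gained regions and had 51 and 67.

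Of 3603 genes with no shScramble region, 1194 had at least 1 shCHD4#1 region. ARHGEF10, a guanine nucleotide exchange factor, had 9 regions, as did CDK2AP1. CACNA1D, an L-type calcium channel, had 8, spread over its body from chr3:53515781-53517180 to chr3:53768651-53769700. TNNT3, the fast skeletal troponin T, had 7, from chr11:1917811-1918910 to chr11:1943591-1944740, of which the pair at chr11:1926021-1926580 and chr11:1926601-1927260 shared a column 7 of 169. CTSD, the lysosomal protease cathepsin D, which lies in the same part of chromosome 11, had 6. Among the first 20000 rows ARHGEF10 and CTSD had 1 region each and the other genes named had 0. The reverse case, regions with shScramble and none with shCHD4#1, was met at 250 genes and with fewer regions each.

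C2orf15 had 4 shScramble regions and none with shCHD4#1, from chr2:99139921-99140930 to chr2:99155101-99155950. They formed 2 pairs with a column 7 of 566 and of 417. CHAC2, a glutathione-degrading enzyme, CSTF1, an mRNA cleavage factor, and FANCL, the ubiquitin ligase of the Fanconi anaemia pathway, had 3 regions each and none with shCHD4#1. At FANCL the region at chr2:58156211-58158810 stood alone with a column 7 of 100, and those at chr2:58240181-58241000 and chr2:58242341-58243660 shared a value of 268. AURKA, the mitotic kinase next to CSTF1 on chromosome 20, had 2 and 0.

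Of the tissue lists, muscle genes stood at the head. Of 41 genes of skeletal and cardiac muscle, 32 had more regions in the shCHD4#1 list (78%) and 1 had fewer regions, MYOZ1 with 4 and 3. An end was covered only with shCHD4#1 for 10 of them and only with shScramble for 0. TNNT3 had 0 and 7 regions, TPM2, a tropomyosin, 0 and 3, and ACTN3, the actinin of fast fibres, 1 and 4. Of 44 neuronal and synaptic genes, 34 had more (77.3%) and 4 had fewer. The glutamate receptor genes GRIA1 and GRIN1 had 1 and 9, and 4 and 14 regions, while SYP, a protein of synaptic vesicles, had 7 and 4, or 3 and 3 stretches. Of 96 potassium channel genes, 66 had more (68.8%) and 6 had fewer, with 3 and 16 regions at KCNH1 and 14 and 10, or 8 and 8 stretches, at KCNH2, the channel of the cardiac repolarising current. Of 21 endothelial genes 15 had more and 2 had fewer, with CLDN5, a tight junction protein, at 0 and 4 and ENG, a TGF-beta co-receptor, at 2 and 7. These surpluses were not seen among the first 20000 rows, a cut that leaves no surplus over all genes either (18.6% with more and 19.6% with fewer). There 6 muscle genes had more and 8 fewer, and 11 neuronal genes more and 13 fewer. Of the potassium channel genes 21 had more and 25 fewer, and of the endothelial genes 1 had more and 6 fewer.

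Developmental transcription factors, like the genes of several other lists, often had an end covered in the shCHD4#1 list alone. Of 56, 35 had more regions (62.5%) and 7 had fewer, and an end was covered only with shCHD4#1 for 16 (28.6%, against 11.1% of all genes) and only with shScramble for 2. BARX1, a homeobox factor of stomach and jaw, had 0 and 3 regions, and FOXA2 and GATA6, factors of endoderm, had 0 and 2 each, while NEUROD1, a neurogenic factor, had 1 and 0. Among the first 20000 rows 9 had more and 4 had fewer. In the list of 19 WNT ligands 12 had more and 3 had fewer, and 6 had an end covered only with shCHD4#1 (31.6%). This share was 25% for neuronal, 24.4% for muscle, 23.8% for endothelial and 21.9% for potassium channel genes. For haematopoietic and lymphoid genes it was 21.2%, and for liver and gut genes 20.7%. It was below 11.1% for cell cycle, ribosomal protein, DNA damage response, Ewing sarcoma and interferon genes, and for protocadherins, olfactory receptors and zinc finger genes.

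Of 30 Ewing sarcoma markers and fusion-activated genes, 18 had more regions (60%) and 7 had fewer (23.3%), and 23 had an end covered in both lists. NR0B1, which the fusion activates through a GGAA repeat, had 3 and 3 regions. NKX2-2, a homeobox target of the fusion, had 8 and 5, or 5 and 3 stretches. The 5 were wider, so that 15.4 kb were covered with shCHD4#1 and 14.6 kb with shScramble, and 1 region was lost. CCND1, cyclin D1, had 4 and 5, or 4 and 3 stretches. CD99, the surface antigen used in diagnosis, had 0 in both lists. A count of 0 means that no usable region lay within 5 kb of the gene, and it does not show closed chromatin. PHF19, a Polycomb partner, had 2 and 9, TERT 0 and 4, and PPP1R1A, a phosphatase inhibitor, 4 and 2. Of 32 fusion-repressed and mesenchymal genes, 19 had more (59.4%) and 5 had fewer (15.6%), among them TAGLN, a smooth muscle protein, with 1 and 0. Among the first 20000 rows more genes of both lists had fewer regions than had more, with 8 against 4 and 9 against 4.

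The marker sets of other tissues were partly accessible in both lists. ALB of liver and KDR of endothelium had 0 regions in both. CD3E of T cells had 2 and 2. SPI1, the myeloid factor, had 2 and 7, and APOA1 of liver 0 and 3. Of the 6 Ewing sarcoma markers 5 had regions in both lists, with 4 and 5 at STEAP1 and 26 and 33 at PRKCB besides the genes above, and CD99 had none. Regions were also found at markers of other tissues, so the lists alone do not single out the cell type on the label.

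Ribosomal protein genes had nearly as many members with fewer as with more regions. Of 81 cytosolic ribosomal protein genes, 79 had an end covered in both lists and 0 in 1 list alone. In region number 31 had more (38.3%) and 27 had fewer (33.3%), with 2 and 7 at RPS2, 5 and 1 at RPS10 and 4 and 1 at RPL23, and with joined pieces 23 had more and 23 had fewer. Of 38 cell cycle and replication genes 17 had more (44.7%) and 9 had fewer (23.7%), and 36 had an end covered in both lists. Of 40 DNA damage response genes 21 had more and 8 had fewer, with 3 and 9 at PARP1, the enzyme that makes poly(ADP-ribose) at breaks, and among the first 20000 rows 5 had more and 10 had fewer. Of 33 apoptosis genes 21 had more and 5 had fewer, among them the death receptor FAS, with 7 and 3, and the caspase CASP2, with 6 and 3. CASP2 had 3 and 3 stretches with joined pieces, and FAS had equal numbers with 50 kb on each side. Of 65 protocadherins 23 had more (35.4%) and 24 had fewer (36.9%). These genes lie in clusters, so neighbours share regions.

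The remaining lists differed in how many of their genes had any region. Of 44 collagens 30 had more (68.2%) and 10 had fewer, with 3 and 12 at COL2A1, the collagen of cartilage, and 6 and 2 at COL12A1, and both turned among the first 20000 rows. Of 39 HOX genes 21 had more and 10 had fewer. Of 509 zinc finger genes of the ZNF series 205 had more (40.3%) and 93 had fewer (18.3%). Of 392 olfactory receptors 51 had more (13%) and 9 had fewer, and 357 had neither end covered in either list. Of 149 keratins and keratin-associated proteins 51 had more (34.2%) and 11 had fewer, but among the first 20000 rows 4 and 12. Of 33 haematopoietic and lymphoid genes 16 had more (48.5%) and 3 had fewer (9.09%). Of 29 liver and gut genes 15 had more (51.7%) and 3 had fewer (10.3%). Of 31 interferon and innate sensing genes 14 had more (45.2%) and 4 had fewer (12.9%), but among the first 20000 rows 1 and 5. The order turned there also for collagens, with 12 more and 15 fewer, zinc finger genes, with 82 and 90, and ribosomal protein genes, with 14 and 25. It held for haematopoietic and lymphoid genes, with 9 more and 2 fewer, and for liver and gut genes, with 6 and 4. It also held for cell cycle genes, with 10 and 6, apoptosis genes, with 7 and 6, and WNT ligands, with 6 and 4. HOX genes, with 9 and 9, and olfactory receptors, with 7 and 7, had equal numbers there.

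**Figure D5:**
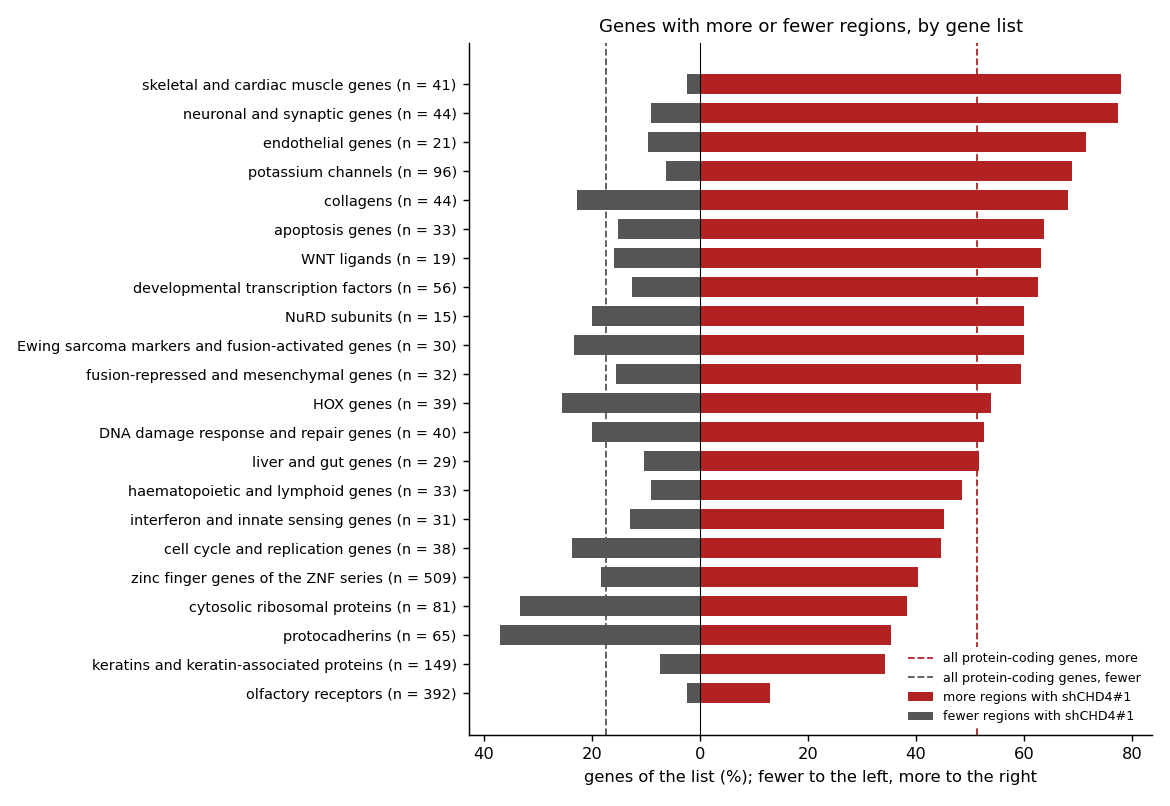
Share of the genes of each list with more regions (red, to the right) or fewer regions (grey, to the left) in the shCHD4#1 list than in the shScramble list, whole lists, with the shares of all 19974 protein-coding genes as dashed lines at 51.2% and 17.3%. Muscle and neuronal genes, at 78% and 77.3%, stand highest, and protocadherins and ribosomal protein genes, at 36.9% and 33.3%, have the largest shares with fewer regions. The lists were not matched for gene length.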

How the data were processed

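ATAC-seq was measured in 9 libraries, 3 per group, of which the 6 of shScramble and shCHD4#1 enter here through 1 region list per group. Per the submitters' processing notes, the tools were deepTools 3.2.1, SAMtools 1.9, BWA, Trimmomatic 0.36 and FastQC 0.11.7, with GRCh38 and dm6 as genome builds. Read depth, peak caller and peaks per replicate were not given in the sources used here. The name of each deposited file points to a tool that combines replicate peak lists, so the lists were taken as combined, which no header states. Columns 5 and 7 of the deposited lists hold scores of the authors, and columns 8 and 9 hold the p-value and its adjusted form (q-value) of the authors. Neither the scale of column 7 nor a normalization to the spike-in is stated, so column 7 was used only within a list.

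Regions were compared by overlap of at least 1 bp, in Python 3.11.15 with NumPy 2.4.6, pandas 2.3.3 and SciPy 1.17.1, and the overlap code was tested on simulated regions. Coordinates are on GRCh38, counted from 1. Gene positions and start sites are from RefSeq (GRCh38.p14). The position of a region was given to the first class that applied: within 1 kb of a gene end, inside a gene, or by distance to the nearest gene. Genes were counted with 5 kb on each side, and log2 ratios of region numbers had 1 added to both. Regions with column 7 below 0 or over 20 kb wide were left out (416 and 413). Equal lengths were made from the first 20000 rows. Genes named are CHD4, markers of Ewing sarcoma and of other tissues, the genes nearest to the most gained or lost regions, those with regions in 1 list alone, the best-placed regions, the longest runs, and the largest differences within each list of genes. The members and lists were chosen with earlier results of these data known. The joining of pieces, the 1 kb gap, the ordering by column 7 and the choice of printed start sites were added after the data were seen.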

Additional observations from a re-analysis of the deposited data

How the results depend on the processing

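No paired analysis was possible because each group has 1 list and its columns carry no replicate number. For the same reason no replicate could be left out. Keeping the regions with column 7 below 0 or over 20 kb moved none of the 5 shares (lost, gained, and the gene-end share of kept shCHD4#1, gained and lost regions, in this order throughout) beyond its counting interval. The other settings did. They gave 40.5%, 41.4%, 34%, 22.4% and 19.9% with the first 20000 rows of each file. With an authors' p of at most 0.05 they gave 31%, 49.4%, 40.1%, 23.4% and 24.6%. An overlap of 50% of the region gave 34.6%, 55.6%, 22.4%, 12.9% and 15.5%. The first 20000 rows against the whole other list gave 6.39%, 11.3%, 30.8%, 16.2% and 30.2%. The next 3 settings were added after the data were seen. With no region of the other list within 1 kb the shares were 12.4%, 34.4%, 21.7%, 8.4% and 6.64%. With the 20000 highest regions by column 7 they were 37.6%, 39.6%, 45.9%, 20.8% and 34.5%. With joined pieces they were 18.7%, 42%, 23%, 10.3% and 9.51%. A gene-end window of 500 bp gave gene-end shares of 18.2%, 8.4% and 9.3%, and one of 2 kb gave 26.9%, 15.3% and 16.8%. Gained regions lay at gene ends less often than kept ones under all of these settings. The order of gained and lost regions was not stable.

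Genes with more regions with shCHD4#1 numbered 3721 with the first 20000 rows and 3543 with the 20000 highest by column 7, against 10222, and genes with fewer numbered 2226 with joined pieces, against 3448. Genes with an end covered only with shCHD4#1 numbered 931 by column 7, against 2227. Those with an end covered only with shScramble numbered 1535 with the first 20000 rows, 894 with a p of at most 0.05 and 1565 by column 7, against 587. The median width ratio was 1.01 with the first 20000 rows and 1.02 with joined pieces, against 0.993.

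Of 64 genes whose region numbers are given, the log2 ratio of region numbers kept its direction, or stayed at 0, for 64 with 0.5 added, for 55 with 50 kb on each side, for 58 with joined pieces and for 22 with the first 20000 rows, where 33 went to or from 0. With joined pieces HDAC2, CASP2, KCNH2 and SYP went to 0, and with 50 kb on each side FAS, TAGLN and PPP1R1A did. It turned with 50 kb on each side at RPS10 (0.26), CASP2 (0.19) and MYOZ1 (0.46). It turned with the first 20000 rows at MTA3 (-0.42), COL12A1 (1.00), CNTNAP2 (-0.36), PTPRN2 (-0.74), NSMCE2 (0.42), ASAP1 (0.58), ZFAT (0.83), COL2A1 (-1.0) and PRKCB (-1.0). It turned with joined pieces at ZFAT (0.04) and CCND1 (-0.32). The causes were not tested, except that fewer regions are counted in the shortened lists by construction.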

Other observations

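For each of 5 types of gene that make no protein, more genes had an end covered only with shCHD4#1 than only with shScramble, by different margins. Among 18177 long noncoding RNA genes, an end lay within 1 kb of a region only with shCHD4#1 for 2268 (12.5%) and only with shScramble for 648 (3.56%). Among 1911 microRNA genes these numbers were 216 (11.3%) and 68 (3.56%). Genes of small nucleolar RNAs, which guide the modification of ribosomal RNA, had 77 and 45 of 1196, and transfer RNA genes had 27 and 19 of 443. Transfer RNA genes had an end covered in both lists for 298 genes (67.3%), the largest share of the 6 gene types compared, beside 59.9% of protein-coding genes. Of the 15212 pseudogenes, 1051 had an end covered in both lists, 916 with shCHD4#1 only and 389 with shScramble only. Of the genes with an end covered with shScramble, 4.68% of protein-coding genes, 10.7% of long noncoding RNA genes and 27% of pseudogenes had none covered with shCHD4#1. Many of these genes lie inside or beside protein-coding genes or are copies of them, so their regions are not separate from those described above.

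Short regions turned over most. A wide region meets the rule of 1 shared bp more easily than a narrow one, and the part of this rule was not tested. Of regions under 1 kb wide, 28.2% of those in the shScramble list were lost and 56% of those in the shCHD4#1 list were gained. Of regions of 2 kb or more, 16.8% were lost and 36.3% were gained. In each of the 3 width classes fewer gained than kept regions lay at gene ends: 14% against 23.4% under 1 kb, 9.17% against 18.8% from 1 to 2 kb, and 12.4% against 27.5% above.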
